A study of Mus musculus with 47 samples.

Results

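The guanylate-binding proteins (GBPs) and immunity-related GTPases (IRGs) are interferon-induced GTPases that act against bacteria and parasites inside cells. Of their genes, 9 were taken by gene symbol: Gbp2, Gbp3, Gbp5, Gbp7 and Gbp9 of the GBPs, and Irgm1, Irgm2, Igtp and Iigp1 of the IRGs. They are 9 of the 51912 genes listed for the macrophage libraries, and every one of them was also listed for the cell line libraries. The study asked how the chromatin reader ZMYND8 affects inflammatory genes of macrophages. RNA was sequenced in 12 libraries, 1 library per group, so there is no replicate check and each comparison is between 2 libraries rather than between conditions. Bone marrow-derived macrophages (BMDMs) of C57BL/6 mice were WT or Zmynd8 cKO, in which Cre driven by Lyz2, a gene of myeloid cells, removes floxed exons 6 and 7 of Zmynd8. BMDMs were grown with M-CSF and were either not treated (NT) or given 100 ng/ml LPS or 20 ng/ml IL-4 for 6 h, and each of these libraries mixed 3 biological replicates.

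The other 6 libraries are labelled Raw264.7, a mouse macrophage-like line, with the strain given as C57BL/6. Their origin was not tested, and "cell line" stands for the label. In the Zmynd8 set, cells lacking Zmynd8 were left without it (Zmynd8 KO), given Zmynd8 back (WT Zmynd8), or given D/E-A, a form with the acidic residues of its disordered region changed to alanine. The labels state no treatment for this set. The study's text places RNA-seq of WT Zmynd8 and D/E-A after LPS, and no treatment was found there for RNA-seq of Zmynd8 KO. The p65 set is labelled as cells lacking p65, the NF-kB subunit encoded by Rela. By label they had no p65 added (p65 KO), p65 given back (WT p65), or K122R. In K122R, a form of p65, a lysine that can be acetylated is arginine. All 3 libraries of the p65 set were from LPS-treated cells. BMDM libraries held 22597421 to 28386625 counts and cell line libraries 15127110 to 21042628 reads. Intervals are 95% limits from exact Poisson or Clopper-Pearson formulas and cover counting error only.

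GBPs gather on the vacuoles of parasites and bacteria and on free bacteria in the cytosol, break open the compartment, and expose ligands to the inflammasomes. IRGs come as effectors that load onto the vacuole in the GTP-bound state and as regulators that hold the effectors inactive on the membranes of the host. Both families are induced by interferon-gamma and by type I interferon, and in macrophages LPS reaches them by way of interferon-beta.

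The labels were checked against the targeted genes before the GTPases were read. Zmynd8 held 2284 counts in WT NT and 1842 in cKO NT, 1967 in WT LPS and 2033 in cKO LPS, and 3636 in WT IL-4 and 3944 in cKO IL-4. Zmynd8 was not called different in any of the 3 comparisons of cKO with WT at the gene level, where reads of exons other than the floxed pair also count, and "cKO" below stands for the label. In the Zmynd8 set Zmynd8 held 485 reads in WT Zmynd8, 497 in D/E-A and 121 in Zmynd8 KO, and in the last its value is the only one of the table that is not a whole number of reads. In the p65 set it held 1826 reads in WT p65, 1070 in K122R and 1624 in p65 KO. Rela held 1601 reads in WT p65, 5850 in K122R and 765 in p65 KO. With Rela still at 50.6 CPM in p65 KO (102 in WT p65), "p65 KO" below also stands for the label. Elsewhere Rela held 2846, 3334 and 3611 reads in WT Zmynd8, D/E-A and Zmynd8 KO. It held 2387 to 2851 counts in the BMDM libraries other than WT NT and cKO NT, which held 2178 and 2195.

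The LPS treatment showed in a marker gene. Nos2, the inducible nitric oxide synthase, went from 229 to 186078 counts with LPS in WT and from 96 to 173173 in cKO BMDMs.

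The cell line libraries stood apart from each other, in genes chosen after their values were seen. Xist, transcribed from the inactive X chromosome, held 8467, 8062 and 7109 reads in WT Zmynd8, D/E-A and Zmynd8 KO and 2, 0 and 3 in WT p65, K122R and p65 KO. The Y-linked Ddx3y held 400, 1810 and 677 reads in the p65 set against 1 in WT Zmynd8 and 0 in Zmynd8 KO. Gbp2b, a GBP gene, held 5400, 7699 and 4930 reads in the p65 set but 15 in WT Zmynd8 and 27 in Zmynd8 KO. D/E-A lists neither Ddx3y nor Gbp2b. In BMDMs Xist held 19386 and 7310 counts in WT NT and cKO NT, 6133 and 10046 in WT LPS and cKO LPS, and 31447 and 27605 in WT IL-4 and cKO IL-4. The sets carry 1 label but differ in these genes, so levels of the 9 genes were compared only within a set.

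Markers of other blood cells also differed. The 7 neutrophil markers summed to 10341 counts per 1000000 (CPM) in WT Zmynd8, 4419 in D/E-A and 6959.8 in Zmynd8 KO, with all 7 above 0 and S100a9 (in D/E-A, Ngp) the most abundant. In WT p65, K122R and p65 KO they summed to 0.319, 0.18 and 0.264 CPM, with 4 of the 7 not listed. In the BMDMs they summed to 2.29, 2.35, 4.22 and 2.56 CPM in WT NT, cKO NT, WT LPS and cKO LPS, and to 382 and 514 CPM in WT IL-4 and cKO IL-4. The 8 macrophage markers were above 0 in every library and summed to 7659, 7863, 6928, 7096, 10316 and 10230.1 CPM in the BMDMs in the same order. In cell lines they summed to 3598, 5264 and 4588 CPM in WT Zmynd8, D/E-A and Zmynd8 KO, and to 2074, 2350.3 and 2488 in WT p65, K122R and p65 KO, where the receptor gene Mertk held 4, 3 and 2 reads. The 6 T and NK cell markers summed to 6.25, 3.85 and 0.57 CPM in WT Zmynd8, D/E-A and Zmynd8 KO, where 5, 3 and 5 of them were listed, and the 4 stromal markers, of which 3, 2 and 3 were listed, to 9.84, 14.5 and 11.7. The 4 B cell markers summed to 161, 155 and 119 CPM in WT Zmynd8, D/E-A and Zmynd8 KO, led by Cd79b, and to at most 17.2 CPM elsewhere. In bulk RNA, fewer cells of a type and less RNA per cell cannot be told apart.

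In BMDMs the GBP genes were lowest in cKO NT and highest after LPS. Gbp2, which coats the vacuole of Toxoplasma, measured 99.5 CPM in WT NT, 28.6 in cKO NT, 5262 in WT LPS, 5189 in cKO LPS, 68.3 in WT IL-4 and 185 in cKO IL-4. Gbp5, which promotes assembly of the NLRP3 inflammasome, measured 21.1 CPM in WT NT, 4.56 in cKO NT, 1946 in WT LPS, 2214 in cKO LPS, 24.2 in WT IL-4 and 89.2 in cKO IL-4, with 95% limits of 3.72 to 5.53 CPM in cKO NT. Both were highest in the LPS libraries and lowest in cKO NT. The levels of Gbp2 did not overlap, and for Gbp5 only WT NT and WT IL-4 did. Gbp3, in the same chromosome cluster as Gbp2, measured 39.3 CPM in WT NT, 8.54 in cKO NT, 892 in WT LPS, 946 in cKO LPS, 33.1 in WT IL-4 and 77 in cKO IL-4. Gbp7, linked to assembly of the phagocyte oxidase, measured 34 CPM in WT NT, 6.86 in cKO NT, 322 in WT LPS, 428 in cKO LPS, 11.6 in WT IL-4 and 32.3 in cKO IL-4. Gbp3 and Gbp7 were lowest in cKO NT and highest in cKO LPS, and Gbp7 had the same level within counting error in WT NT and cKO IL-4. Gbp9 measured 73.2 CPM in WT NT, 17.3 in cKO NT, 462 in WT LPS, 450 in cKO LPS, 52.5 in WT IL-4 and 71.7 in cKO IL-4. It was lowest in cKO NT, and neither cKO IL-4 and WT NT nor the 2 LPS libraries could be separated at this depth.

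The IRG genes were also highest after LPS. Irgm1, a regulator needed against mycobacteria, measured 231 CPM in WT NT, 86.2 in cKO NT, 1084 in WT LPS, 955 in cKO LPS, 90.2 in WT IL-4 and 137 in cKO IL-4. Irgm2, a further regulator, measured 97.8 CPM in WT NT, 28.5 in cKO NT, 573 in WT LPS, 529 in cKO LPS, 49.8 in WT IL-4 and 90 in cKO IL-4. Both were lowest in cKO NT, which for Irgm1 was within counting error of WT IL-4, and both were highest in the LPS libraries. Igtp, the regulator also called Irgm3, measured 75.6 CPM in WT NT, 31.1 in cKO NT, 814 in WT LPS, 700.4 in cKO LPS, 27.9 in WT IL-4 and 57.7 in cKO IL-4. Iigp1, an effector loaded onto the vacuole of Toxoplasma, measured 7.86 CPM in WT NT, 1.9 in cKO NT, 1089 in WT LPS, 1052 in cKO LPS, 14.6 in WT IL-4 and 26.4 in cKO IL-4, with 95% limits of 1.38 to 2.56 CPM in cKO NT. Igtp had its lowest level in WT IL-4, within counting error of cKO NT, while Iigp1 was lowest in cKO NT and its 6 levels did not overlap.

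Together the 9 genes held 0.0679% of the counts in WT NT (0.0669 to 0.0689%), 0.0214% in cKO NT (0.0208 to 0.022%), 1.24% in WT LPS and 1.25% in cKO LPS. With IL-4 they held 0.0372% in WT (0.0365 to 0.0379%) and 0.0766% in cKO (0.0755 to 0.0776%). The cKO share was thus the lower of the pair when untreated and the higher of the pair with IL-4. Per length, in transcripts per 1000000 (TPM), the most abundant member was Irgm1 in WT NT (171 TPM), cKO NT (53.7 TPM) and WT IL-4 (68 TPM). It was Gbp2 in WT LPS (3084 TPM), cKO LPS (3226 TPM) and cKO IL-4 (114 TPM). The least abundant was Iigp1 in WT NT (3.98 TPM) and cKO NT (0.82 TPM) and Gbp7 in the 4 treated libraries, at 87.9, 129, 3.21 and 10.1 TPM in WT LPS, cKO LPS, WT IL-4 and cKO IL-4. GBP and IRG genes share long stretches of near-identical sequence, so how reads were divided among them is uncertain. The deposited estimated count was a whole number in all 6 BMDM libraries for Irgm1, in 5 for Gbp2 and Gbp5, in 4 for Gbp3 and Iigp1, in 3 for Gbp9, in 1 for Gbp7 and in 0 for Irgm2 and Igtp.

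**Figure D1:**
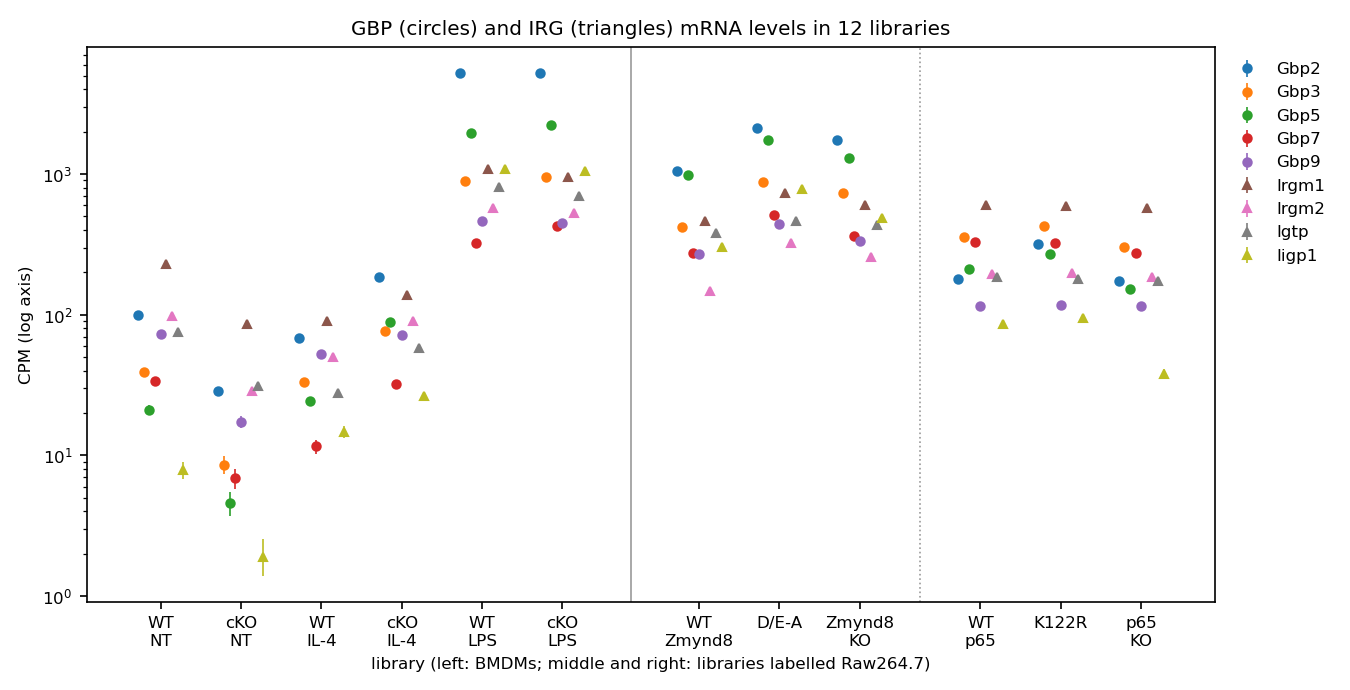
CPM on a log axis for the 9 genes (circles, GBP; triangles, IRG) in each of the 12 libraries, with bars for 95% Poisson limits. In BMDMs the lowest point is that of cKO NT for 8 of the 9 genes (1.9 to 86.2 CPM) and the highest those of LPS (322 to 5262 CPM in WT LPS).

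Untreated, the libraries labelled Zmynd8 cKO and WT differed in all 9 genes. Here a call asks for at least a 1.2-fold difference and, by the two-sided exact binomial test of the counts, a Benjamini-Hochberg adjusted p under 0.05. All 9 were called lower in cKO, against a background of 25.9% of 12463 genes called lower and 21.7% called higher. Over the 9 the median log2 fold change came to -1.76, beside -0.01 for all genes tested. With TPM in place of CPM the latter was -0.20. By fold alone 22% of calls were in the higher direction with TPM and 46.3% with CPM. The exact test of edgeR, run with a biological coefficient of variation set to 0.2, called 8 of the 9 lower, all but Igtp. Among GBPs the log2 fold change was -2.15 (-2.38 to -1.93) for Gbp7, -2.08 (-2.29 to -1.87) for Gbp3, -2.02 (-2.17 to -1.87) for Gbp9, -1.99 (-2.25 to -1.73) for Gbp5 and -1.76 (-1.88 to -1.64) for Gbp2. Among IRGs it was -1.74 (-1.86 to -1.62) for Irgm2, -1.61 (-1.95 to -1.26) for Iigp1, -1.41 (-1.49 to -1.34) for Irgm1 and -1.25 (-1.38 to -1.13) for Igtp. In fold terms Gbp7 was 4.45-fold and Igtp 2.39-fold lower, the widest and narrowest of the 9, and the largest adjusted p of the 9 in the exact binomial test was 6.81e-21, for Iigp1. Of the genes tested, 0.538% lay below the median of the 9.

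Other genes of the families were lower as well. Of 13 other GBP and IRG genes tested, 13 were called lower and 0 higher, with a median of -1.60. Gm4951 (-2.66) and 9930111J21Rik1 (-2.63) were lowest, and Gbp8 (-0.77) and Irgq (-0.29) fell least. The larger interferon-induced GTPases measured Gvin1 -2.65 (-2.75 to -2.55), Mx1 -2.05 (-2.16 to -1.95) and Mx2 -1.48 (-1.68 to -1.29), all called lower. Of 14 other interferon-stimulated genes 13 were called lower and 0 higher (median -1.76), led by Ifit2 (-3.13) and Rsad2 (-2.65), both antiviral, with Xaf1 (-0.94) and the chemokine gene Cxcl9 (-0.87) the least of those called. Of 14 interferon signalling genes 11 were called lower and 1 higher (median -0.65). The transcription factor genes Irf7 (-1.80) and Stat2 (-1.51) fell most, and Irf3 (0.27) was the 1 called higher. Of 12 genes for GTPase loading and downstream steps, 3 were called lower and 2 higher, among them Casp4 (-0.42), the caspase that senses LPS in the cytosol, and Gabarapl2 (0.39), which helps place the GTPases. Of the interferon and receptor genes, 4 were tested and 1 was called, Ifnar1 (-0.32), while Ifnb1 and Ifng held 0 counts in both untreated libraries. Of 8 macrophage markers 2 were called higher and 4 lower (median -0.18), and the B cell marker Cd79b went from 35 to 102 counts. Of 8 housekeeping genes 5 were called higher and 0 lower (median 0.28), led by Gapdh (0.72) and Rplp0 (0.64). Of genes used to check treatments, Nos2 (-0.89) was called lower and Tnf (0.44) higher, as was Cd14 (1.01). Xist measured 739.7 CPM in WT NT and 323 in cKO NT. Their part in the result was not tested.

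After LPS the same 2 genotypes had nearly equal levels of the 9 genes. Gbp7 was called higher in cKO at 0.41 (0.36 to 0.45), or 1.33-fold, and no gene was called lower, so 1 of 9 was called higher against 17.1% of 12386 genes, and 0 against 8.76% lower. The median was -0.04 beside 0.03 for all genes tested. The other GBPs measured 0.19 (0.17 to 0.20) for Gbp5, 0.08 (0.06 to 0.11) for Gbp3, -0.02 (-0.03 to -0.01) for Gbp2 and -0.04 (-0.08 to 0.00) for Gbp9. The IRGs measured -0.05 (-0.08 to -0.03) for Iigp1, -0.11 (-0.15 to -0.08) for Irgm2, -0.18 (-0.21 to -0.16) for Irgm1 and -0.22 (-0.25 to -0.19) for Igtp. These 8 stayed under the fold of 1.2, and neither a fold of 2 nor edgeR called any of the 9. With deposited TPM in place of CPM, Gbp2, Gbp9 and Iigp1 measured 0.06, 0.06 and 0.03, so their sign depends on the unit. Scaled by the median ratio, 52.9% of all calls were in the higher direction in place of 66.1%, and Igtp was then called lower at -0.27.

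Of 16 other GBP and IRG genes 2 were called higher and 4 lower (median -0.12). Gbp2b (1.11) and 9930111J21Rik1 (0.85) were the higher pair, and Gbp11 (-0.66) and Gbp8 (-0.48) the lowest. Gvin1 measured -0.95 and was called lower, while Mx1 (-0.12) and Mx2 (-0.06) were not called. Of 14 other interferon-stimulated genes 1 was called higher, Ciita (0.45), and 2 lower, Xaf1 (-0.30) and Isg15 (-0.27), with a median of -0.03. Of 14 signalling genes 1 was called higher and 2 lower, and Ifnb1 held 61 counts in WT LPS and 28 in cKO LPS.

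With IL-4 the 9 genes were higher in the library labelled cKO. All 9 were called higher, against 13.8% of 13245 genes called higher and 10.5% lower, and the median was 1.02 beside 0.01 for all genes tested. GBPs spanned the range, from 1.84 (1.72 to 1.96) for Gbp5, through 1.42 (1.35 to 1.5) for Gbp2, 1.41 (1.24 to 1.58) for Gbp7 and 1.19 (1.08 to 1.30) for Gbp3, to 0.44 (0.35 to 0.54) for Gbp9. IRGs measured 1.02 (0.90 to 1.14) for Igtp, 0.84 (0.75 to 0.94) for Irgm2, 0.81 (0.64 to 0.98) for Iigp1 and 0.59 (0.52 to 0.67) for Irgm1. Gbp5 was 3.58-fold and Gbp9 1.36-fold higher, and the largest adjusted p of the 9 in the exact binomial test was 3.4e-18, for Gbp9. All 9 were called lower in cKO when untreated and higher in cKO with IL-4, as were 3.68% of the 12118 genes tested in both, and the difference between the effects was not tested. The edgeR test called 2 of the 9, Gbp5 and Gbp7, and a fold of 2 called 5.

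The neutrophil markers moved in the same direction here: 5 of 7 were called higher, the summed level being 382 CPM in WT IL-4 and 514 in cKO IL-4 with none at 0 and S100a9 the most abundant, and their part in the result was not tested. Genes used to check treatments also differed in this pair. Nos2 (1.87), Tnf (1.71) and Il6 (1.38) were called higher, with 35, 1099 and 6 counts in WT IL-4 and 187, 3361 and 56 in cKO IL-4, as were Chil3 (0.43) and the macrophage marker Cd14 (1.01), while Retnla (-1.75) was called lower. Why they differed was not tested. Of 14 other GBP and IRG genes 8 were called higher and 0 lower (median 0.36), from Gbp6 (1.25) and Gm12250 (1.17) down to Gm5431 (0.32) and 9930111J21Rik2 (0.30). Mx1 (1.53) and Mx2 (1.10) were called higher and Gvin1 (0.26) was not. Of 14 other interferon-stimulated genes 11 were called higher, led by Cxcl10 (2.09) and Ifit1 (1.73), and 1 lower, Ciita (-0.59), with a median of 1.24. Of 14 signalling genes 6 were called higher and 0 lower (median 0.22), with Socs3 (1.68) and Usp18 (0.83), both inhibitors of cytokine signalling, at the top.

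LPS was set against no treatment within each genotype, and these comparisons share their NT libraries with those above and below. In WT all 9 genes were called higher with LPS, against 20.6% of 12813 genes called higher and 61.1% lower. In cKO all 9 were called higher as well, against 23.8% of 12666 genes higher and 58.9% lower. The median was 3.41 in WT and 5.77 in cKO, beside -0.58 and -0.55 for all genes tested. Iigp1 measured 6.94 (6.77 to 7.12) in WT (123-fold) and 8.5 (8.21 to 8.79) in cKO (363-fold). Gbp5 measured 6.46 (6.35 to 6.58) in WT and 8.64 (8.41 to 8.87) in cKO (399-fold), and Gbp2 5.71 (5.66 to 5.77) and 7.45 (7.34 to 7.56). The effector IRG and these 2 GBPs thus had the largest changes of the 9 in both genotypes. Gbp3 measured 4.47 (4.38 to 4.56) in WT and 6.63 (6.45 to 6.82) in cKO, Gbp7 3.21 (3.11 to 3.31) and 5.77 (5.57 to 5.98), and Gbp9 2.64 (2.57 to 2.71) and 4.62 (4.48 to 4.76). Of the regulators, Igtp measured 3.41 (3.35 to 3.48) in WT and 4.45 (4.34 to 4.56) in cKO, Irgm2 2.54 (2.48 to 2.60) and 4.17 (4.05 to 4.28), and Irgm1 2.23 (2.19 to 2.27) and 3.46 (3.39 to 3.52), the smallest of the 9 in both genotypes. Every value was larger in cKO, whose NT levels were lower while its LPS levels were close to those of WT, and the difference between genotypes was not tested.

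The 5 dendritic cell markers summed to 1.37 CPM in WT NT, 0.708 in cKO NT, 12.8 in WT LPS and 16 in cKO LPS, with Xcr1 the most abundant and Flt3 at 0 in all 4. Both of the 2 tested were called higher with LPS in each genotype, among them Ccr7 at 2.45 in WT and 2.83 in cKO. With IL-4 the 5 summed to 5.11 CPM in WT and 5.43 in cKO. Their part in the result was not tested. Scaling mattered for the background of these comparisons. By library total 25.2% of calls in WT and 28.8% in cKO were in the higher direction. By the median ratio of the libraries these shares were 46.4% and 47.8%, and by TMM 49.5% and 49.4%. The median of all genes went to -0.07 in WT and -0.07 in cKO by median ratio, and the median of the 9 genes to 4.02 and 6.30; all 9 kept their direction. Of 16 other GBP and IRG genes 15 were called higher in WT and 15 in cKO, with none lower and medians of 4.12 and 4.57. Tgtp1 measured 7.88 in WT and 8.56 in cKO, Gbp4 7.28 and 8.70, and 9930111J21Rik2 1.51 and 3.15. Mx1 measured 4.27 and 6.20, Mx2 3.85 and 5.28, and Gvin1 1.07 and 2.77, all called higher. All 14 other interferon-stimulated genes were called higher in both genotypes (medians 3.61 and 5.61), with Cxcl9 at 8.85 and 9.70 and Oasl2 at 1.24 and 2.48.

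IL-4 against no treatment gave opposite directions for most of the 9 genes in the 2 genotypes. The numbers in the titles of the IL-4 libraries lie in another range than those of the NT and LPS libraries, and the labels do not say whether all were prepared together. In WT, 6 of 9 genes were called lower with IL-4 and 1 higher, against 21.7% of 13090 genes lower and 38.6% higher. In cKO all 9 were called higher, against 42.2% of 12966 genes higher and 24.8% lower. The median was -0.54 in WT and 2.08 in cKO, beside 0.15 and 0.17 for all genes tested. Iigp1 was the 1 gene called higher in WT, at 0.81 (0.59 to 1.04), and measured 3.24 (2.92 to 3.54) in cKO. The regulators fell in WT and rose in cKO: Irgm1 measured -1.35 (-1.41 to -1.28) and 0.66 (0.58 to 0.74), Irgm2 -0.96 (-1.05 to -0.87) and 1.62 (1.5 to 1.75), and Igtp -1.41 (-1.52 to -1.29) and 0.87 (0.74 to 1.00). Gbp7 measured -1.48 (-1.65 to -1.30) and 2.08 (1.86 to 2.31), Gbp2 -0.54 (-0.62 to -0.45) and 2.65 (2.53 to 2.77), and Gbp9 -0.47 (-0.57 to -0.37) and 1.99 (1.84 to 2.14). In WT, Gbp3 at -0.24 (-0.36 to -0.11) and Gbp5 at 0.19 (0.03 to 0.35) were not called, while in cKO they measured 3.03 (2.84 to 3.23) and 4.02 (3.78 to 4.26). The edgeR test called 3 of the 6 lower in WT (Gbp7, Irgm1 and Igtp), did not call Iigp1 there, and called 7 of 9 higher in cKO, all but Irgm1 and Igtp, as did a fold of 2. By the median ratio and by TMM Gbp3 was called lower in WT, at -0.40 and -0.39. The difference between genotypes was not tested.

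Here too scaling set the background. By library total 64.1% of calls in WT and 63% in cKO were in the higher direction, against 49.5% and 50.3% by median ratio and 50% and 50.5% by TMM. The median of all genes went from 0.15 to 0.00 in WT and from 0.17 to 0.00 in cKO by median ratio. All 7 neutrophil markers were called higher with IL-4 in both genotypes, from 2.29 to 382 CPM summed in WT and from 2.35 to 514 in cKO. S100a9 was the most abundant in the IL-4 libraries. The B cell marker Cd79b went from 35 to 310 counts in WT and from 102 to 441 in cKO. Macrophage markers went both ways. Csf1r went from 1731 to 4702 CPM in WT and from 1666 to 3847 in cKO. Fcgr1 went from 788 to 127 CPM in WT and from 448 to 153 in cKO. The part of these markers in the result was not tested. Of 13 other GBP and IRG genes 4 were called higher and 7 lower in WT (median -0.30), and 13 higher and 0 lower in cKO (median 1.81). F830016B08Rik measured 2.74 in WT and 4.37 in cKO, Gm4951 1.18 and 4.05, and Tgtp2 -1.2 in WT. Mx1 measured -2.21 and 1.37, Mx2 -1.59 and 0.99, and Gvin1 0.08 (not called) and 2.98. Of 14 other interferon-stimulated genes 2 were called higher and 11 lower in WT (median -1.5), and 13 higher and 1 lower in cKO (median 1.31). Rsad2 (-3.08) and Ifit2 (-2.82) fell most in WT, and Cxcl10 (3.35) rose most in cKO.

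**Figure D2:**
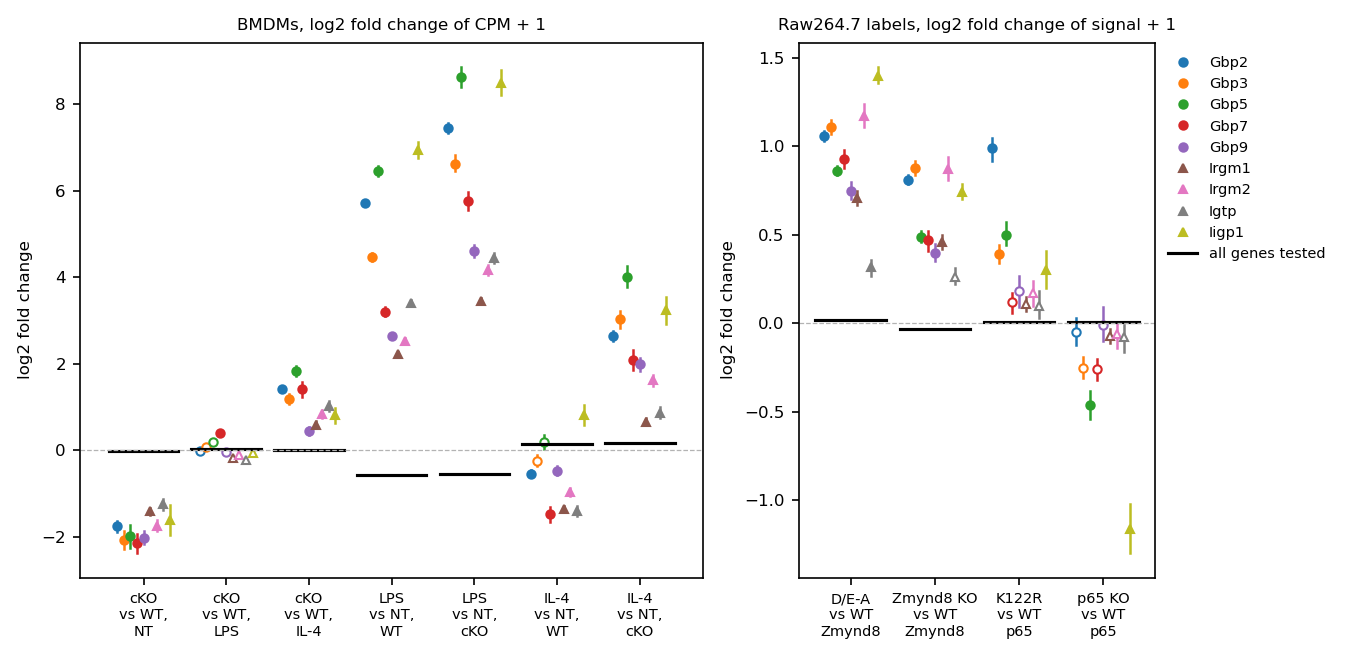
Log2 fold change of the 9 genes (circles, GBP; triangles, IRG) in each comparison, with bars for 95% Clopper-Pearson limits, open symbols for genes not called and a black line for the median of all genes tested. The 9 genes lie at -2.15 to -1.25 in cKO against WT untreated and at 0.44 to 1.84 with IL-4.

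In the Zmynd8 set each of the 9 genes was highest in D/E-A. Gbp2 measured 1044 CPM in WT Zmynd8, 2131 in D/E-A and 1742 in Zmynd8 KO, and Gbp5 979.7 CPM in WT Zmynd8, 1744 in D/E-A and 1306 in Zmynd8 KO. Iigp1 measured 304 CPM in WT Zmynd8, 788 in D/E-A and 485 in Zmynd8 KO. The order was WT Zmynd8, then Zmynd8 KO, then D/E-A for all 3 genes, with limits that did not overlap. Gbp3 measured 418 CPM in WT Zmynd8, 881 in D/E-A and 729 in Zmynd8 KO, Gbp7 274 CPM in WT Zmynd8, 514 in D/E-A and 360.3 in Zmynd8 KO and Gbp9 268 CPM in WT Zmynd8, 440 in D/E-A and 335 in Zmynd8 KO. Irgm1 measured 462 CPM in WT Zmynd8, 739 in D/E-A and 603 in Zmynd8 KO, Irgm2 148 CPM in WT Zmynd8, 326 in D/E-A and 257 in Zmynd8 KO and Igtp 383 CPM in WT Zmynd8, 467 in D/E-A and 436 in Zmynd8 KO. The same order held for these 6, again with limits apart. Of 12769 genes listed once and tested in both D/E-A and Zmynd8 KO 31.2% had this order and 12.7% had it with limits apart. Of the 9, the narrowest span was that of Igtp. Summed, the 9 held 0.428% of reads in WT Zmynd8, 0.803% in D/E-A and 0.625% in Zmynd8 KO.

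Fold changes in cell lines used the deposited signal plus 1 and a fold of 1.2 alone. In D/E-A against WT Zmynd8 all 9 genes were called higher, against 36.7% of 12771 genes called higher and 35.9% lower, although Igtp turned to -0.26 when the libraries were scaled to macrophage markers. The edgeR test called 1 of the 9, Iigp1, and a fold of 2 called 4. The median was 0.93 beside 0.02 for all genes tested. Iigp1 measured 1.4 (1.36 to 1.45), Irgm2 1.17 (1.11 to 1.24), Irgm1 0.71 (0.67 to 0.75) and Igtp 0.32 (0.27 to 0.36). Among GBPs, Gbp3 measured 1.11 (1.07 to 1.15), Gbp2 1.06 (1.03 to 1.09), Gbp7 0.93 (0.88 to 0.98), Gbp5 0.86 (0.84 to 0.89) and Gbp9 0.75 (0.70 to 0.80). Iigp1 was 2.64-fold and Igtp 1.25-fold higher, the ends of the range. Other measures of the libraries differed in the same comparison. Of 8 macrophage markers 6 were called higher (median 0.64; most abundant Fcgr1) and all 7 neutrophil markers were called lower (median -1.10). All 5 dendritic cell markers were called lower (median -0.75; most abundant Ccr7), among them Flt3 with limits of -0.98 to 0.18 that reach 0. The dendritic cell markers summed to 174 CPM in WT Zmynd8, 95.5 in D/E-A and 145 in Zmynd8 KO, and none of these markers was at 0. Of genes used to check treatments, Nos2 measured 500 CPM in WT Zmynd8, 2739 in D/E-A and 1206 in Zmynd8 KO. In the same order of libraries, Il6 measured 104, 120.5 and 110 CPM. Tnf measured 421, 305 and 343 CPM, and Chil3 1109.7, 720 and 1029. The ribosomal RNA entry Rn18s-rs5 took 13.7% of reads in WT Zmynd8 and 6.5% in D/E-A. When both libraries were scaled to the macrophage markers, an alternative chosen after the data were seen, 6 of 9 genes were called higher, the median of the 9 was 0.36 and that of all genes -0.56. By that scaling 14.5% of all calls were in the higher direction in place of 50.5%. The part of the markers, of the treatment check genes and of the ribosomal RNA in the result was not tested.

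In Zmynd8 KO against WT Zmynd8, which shares the WT Zmynd8 library, 8 of 9 genes were called higher and 0 lower, against 33.8% of 21302 genes higher and 36.5% lower, although Gbp9 and Igtp turned negative by macrophage markers. The edgeR test and a fold of 2 each called 0 of the 9. The median was 0.49 beside -0.03 for all genes tested. Gbp3 measured 0.88 (0.84 to 0.92), Irgm2 0.87 (0.81 to 0.94), Gbp2 0.81 (0.79 to 0.84) and Iigp1 0.74 (0.70 to 0.79). Gbp5 measured 0.49 (0.46 to 0.52), Gbp7 0.47 (0.41 to 0.52), Irgm1 0.46 (0.42 to 0.50) and Gbp9 0.40 (0.35 to 0.45), and Igtp, at 0.26 (0.22 to 0.31), was just under the fold of 1.2. Each gene had a smaller value here than in D/E-A against WT Zmynd8. Of the macrophage markers 7 of 8 were called higher (median 0.36) and of the neutrophil markers 4 of 7 lower (median -0.43), with Rn18s-rs5 at 11.1% of reads. Of 5 T and NK cell markers 4 were called lower (median -3.80). Scaled to the macrophage markers, 4 of 9 genes were called higher, the median was 0.06 beside -0.41 for all genes, of whose calls 20.9% were in the higher direction in place of 48%, and Gbp9 and Igtp measured -0.02 and -0.16. Their part in the result was not tested.

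Of 15 other GBP and IRG genes 13 were called higher and 0 lower in D/E-A (median 0.73), and of 17 tested in Zmynd8 KO 12 were called higher and 1 lower (median 0.63). By fold alone these include Gbp10 and Gbp11 in D/E-A and Gbp2b, Gbp8 and Gbp11 in Zmynd8 KO, with 95% limits that reach 0, and the exact test on recovered reads called 11 higher in D/E-A and 8 in Zmynd8 KO. Tgtp2 (1.34) and Gm5431 (1.33) led in D/E-A, and 9930111J21Rik2 (1.22) and Tgtp1 (1.00) in Zmynd8 KO. Gvin1 measured 1.35 in D/E-A and 0.59 in Zmynd8 KO, Mx1 0.95 and 0.44, and Mx2 0.50 and 0.22 (not called in Zmynd8 KO). Of 14 other interferon-stimulated genes 7 were called higher and 3 lower in D/E-A (median 0.27), and 6 higher and 0 lower in Zmynd8 KO (median 0.13), with Cxcl9 at 2.48 and 1.00 and Cmpk2 at 1.55 and 1.17. These counts turned with the scaling. Scaled to macrophage markers, 4 of the 14 were called higher and 7 lower in D/E-A, and 3 higher and 7 lower in Zmynd8 KO. That scaling moved all genes: 8417 of 12771 were called lower and 1423 higher in D/E-A. In Zmynd8 KO 12715 of 21302 were called lower and 3353 higher. Of other GBP and IRG genes, 7 were then called higher and 2 lower in D/E-A, and 7 higher and 4 lower in Zmynd8 KO. Of 14 signalling genes 11 were called higher and 1 lower in D/E-A (median 0.72), and 11 higher and 1 lower in Zmynd8 KO (median 0.55). Socs3 measured 1.5 and 1.04, Socs1 1.04 and 0.96, and Irf3 -0.85 and -0.64. Ifnb1 held 439 reads in WT Zmynd8, 116 in D/E-A and 283 in Zmynd8 KO, so it was highest where the 9 genes were lowest.

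In the p65 set Gbp2 and Iigp1 differed most of the 9 genes. Gbp2 measured 178 CPM in WT p65, 319.7 in K122R and 173 in p65 KO, and Gbp5 210.1 CPM in WT p65, 269.6 in K122R and 153 in p65 KO. Iigp1 measured 85.3 CPM in WT p65, 95.4 in K122R and 38.1 in p65 KO. Gbp2 stood out in K122R, Iigp1 was low in p65 KO, and Gbp5 was high in the former and low in the latter. Gbp3 measured 358 CPM in WT p65, 424 in K122R and 301 in p65 KO, Gbp7 327 CPM in WT p65, 321 in K122R and 273 in p65 KO and Gbp9 116 CPM in WT p65, 118 in K122R and 115 in p65 KO. Irgm1 measured 599.9 CPM in WT p65, 588 in K122R and 573 in p65 KO, Irgm2 195 CPM in WT p65, 199 in K122R and 186 in p65 KO and Igtp 186 CPM in WT p65, 180.3 in K122R and 175 in p65 KO. Limits of WT p65 and K122R overlapped for Gbp7, Gbp9 and the 3 regulators. The 9 held 0.225% of reads in WT p65, 0.251% in K122R and 0.199% in p65 KO.

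In K122R against WT p65, 4 of 9 genes were called higher and 0 lower, against 30.8% of 19670 genes higher and 32.5% lower. By this rule of fold alone the share was near the background, and Gbp7, Irgm1 and Igtp turned negative by library totals. The exact test on recovered reads called the same 4 higher, and fewer of all genes than fold alone did, with counts given under the processing. The edgeR test and a fold of 2 each called 0 of the 9. The called genes were Gbp2 at 0.99 (0.92 to 1.05), Gbp5 at 0.50 (0.44 to 0.57), Gbp3 at 0.39 (0.34 to 0.44) and Iigp1 at 0.30 (0.20 to 0.41). Gbp9 measured 0.18 (0.09 to 0.27), Irgm2 0.17 (0.10 to 0.24), Gbp7 0.12 (0.06 to 0.17), Irgm1 0.11 (0.07 to 0.15) and Igtp 0.10 (0.03 to 0.18). The median was 0.18 beside 0.01 for all genes tested. Scaled by library total, 33.7% of calls were in the higher direction in place of 48.6%, the median of all genes was -0.17, Gbp2 and Gbp5 alone of the 9 were called, and Gbp7, Irgm1 and Igtp turned to -0.03, -0.03 and -0.04.

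The comparison of p65 KO with WT p65 shares the WT p65 library. In it 2 of 9 genes were called lower and 0 higher, against 25.7% of 19879 genes lower and 26.3% higher. By this rule of fold alone the share was again near the background, and Gbp9 turned positive by TMM. The exact test on recovered reads called the same 2 lower, and fewer of all genes than fold alone did, with counts given under the processing. The edgeR test called 0 of the 9, and a fold of 2 called Iigp1. By the main rule the 2 were Iigp1 at -1.16 (-1.30 to -1.02), which is 2.24-fold lower, and Gbp5 at -0.46 (-0.54 to -0.38). Gbp7 at -0.26 (-0.32 to -0.20) and Gbp3 at -0.25 (-0.31 to -0.19) came close to the threshold. Igtp measured -0.08 (-0.16 to -0.01), Irgm1 -0.07 (-0.11 to -0.03), Irgm2 -0.06 (-0.14 to 0.01), Gbp2 -0.05 (-0.12 to 0.03) and Gbp9 -0.01 (-0.10 to 0.09), with the sign of Gbp9 turning by TMM to 0.02. The median was -0.08 beside 0.01 for all genes tested. Of other GBP and IRG genes, 9 of 17 were called higher and 1 lower in K122R (median 0.28), and 12 of 16 lower and 1 higher in p65 KO (median -0.36). By fold alone these include Irgc1 in K122R, at 3 reads against 0, Gbp8 in both (17 reads in K122R, 23 in p65 KO and 13 in WT p65), and Gm12250 and 9930111J21Rik2 in p65 KO, all with 95% limits that reach 0. The exact test on recovered reads called 7 higher and 0 lower in K122R, and 8 lower and 0 higher in p65 KO. Gm12250 measured 1.2 in K122R, and F830016B08Rik -2.53 and Gm4951 -1.47 in p65 KO. Mx1, Mx2 and Gvin1 measured -0.05, 0.26 and 0.36 in K122R and -0.13, 0.09 and -0.27 in p65 KO, of which only Gvin1 was called, by fold alone, with limits of 0.01 to 0.71 in the former and -0.67 to 0.12 in the latter. Of 14 other interferon-stimulated genes 10 were called higher and 0 lower in K122R (median 0.33), and 1 higher and 1 lower in p65 KO (median -0.01), with Ifit2 at 0.90 in K122R and Rsad2 at -0.50 in p65 KO.

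Other measures of the p65 set differed as well. Y-linked genes were highest in K122R. Ddx3y measured 25.5 CPM in WT p65, 109 in K122R and 44.8 in p65 KO. In the same order Eif2s3y measured 16.2, 50.8 and 23.1 CPM, Kdm5d 6.64, 28.2 and 13.7, and Uty 7.15, 22.2 and 10.1. The 5 dendritic cell markers, of which 4 were listed and none was at 0, summed to 39.2 CPM in WT p65, 30.5 in K122R and 42.3 in p65 KO, with Ccr7 the most abundant in WT p65 and Xcr1 in the others. In K122R Ccr7 (-2.26) and Siglech (-0.87) were called lower and Xcr1 (1.18) higher, and in p65 KO Ccr7 (-0.39) and Siglech (-0.28, with limits that reach 0) lower and Xcr1 (0.65) and Zbtb46 (0.57) higher. Of 8 macrophage markers 2 were called higher and 2 lower in K122R (median 0.01), and 2 higher and 1 lower in p65 KO (median 0.16). Mertk, with limits that reach 0, is 1 of the 2 lower in K122R and the 1 lower in p65 KO. In K122R Rela measured 1.92 and Zmynd8 -0.72. Rn18s-rs5 took 0.179% of reads in WT p65, 0.509% in K122R and 0.205% in p65 KO. Their part in the result was not tested.

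In the mouse genome (GRCm38.p6) the genes sit in clusters. Gbp5, Gbp7, Gbp3 and Gbp2 lie with Gbp2b in 1 span of chromosome 3, from base 142496934 to 142638008, and Gbp9 lies on chromosome 5 from base 105076464 to 105110352. On chromosome 11, Igtp (58199556 to 58207592) and Irgm2 (58214977 to 58222783) are neighbours and Irgm1 (48865245 to 48871454) is apart. Iigp1 lies on chromosome 18 from base 60373621 to 60392634. Their identifiers in the tables are ENSMUSG00000028270 (Gbp2), ENSMUSG00000028268 (Gbp3), ENSMUSG00000105504 (Gbp5), ENSMUSG00000040253 (Gbp7), ENSMUSG00000029298 (Gbp9), ENSMUSG00000046879 (Irgm1), ENSMUSG00000069874 (Irgm2), ENSMUSG00000078853 (Igtp) and ENSMUSG00000054072 (Iigp1). Genes next to these 2 clusters, of Gbp2 and of Igtp, were looked up after their values were seen: those within 300000 bases with at least 100 counts. In untreated cKO against WT, Pdlim5 (-0.63) beside the Gbp2 cluster was called lower, and Kyat3 (0.39) and Gtf2b (0.18) on its other side were not called. Beside Igtp and Irgm2, Mrpl22 (0.56) and Zfp692 (0.65) were called higher and Gemin5 (-0.01) and Zfp672 (-0.03) were not called. In cKO against WT Pdlim5 measured -0.28 with IL-4, called lower, where the 6 others were not called, and with LPS 0 of the 7 were called. With LPS against NT all 7 were called lower in both genotypes, as were 61.1% of all genes tested in WT and 58.9% in cKO. With IL-4 against NT Pdlim5 was called higher in both genotypes (1.52 in WT and 1.86 in cKO), Gtf2b lower in both (-0.31 and -0.57), Gemin5 lower in WT (-0.31), and Mrpl22 (-0.60) and Zfp692 (-0.56) lower in cKO. In the Zmynd8 set Pdlim5 was called higher in D/E-A (1.03) and Zmynd8 KO (0.61), Zfp692 lower in both (-0.93 and -0.76) and Gemin5 lower in D/E-A (-0.32). In K122R Pdlim5 (0.29) was called higher and Kyat3 (-0.68), Zfp692 (-0.61), Gemin5 (-0.51) and Mrpl22 (-0.31) lower, and in p65 KO Zfp692 (0.45) higher and Zfp672 (-0.41) and Gemin5 (-0.32) lower.

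Likeness was read over the 6 BMDM libraries. The Pearson r of each of the 9 genes with the mean log2(CPM + 1) of the other 8 ran from 0.965 for Irgm1 to 0.998 for Gbp2, with Igtp at 0.974, Iigp1 at 0.985, Gbp9 at 0.987, Gbp5 at 0.988, Gbp7 at 0.989, Irgm2 at 0.992 and Gbp3 at 0.994. The mean profile was 5.74 in WT NT, 3.96 in cKO NT, 9.92 in WT LPS, 9.93 in cKO LPS, 5.14 in WT IL-4 and 6.20 in cKO IL-4 on the log2 scale, so the LPS pair stands far from the other 4 libraries. Over those 4 alone the r of each with the other 8 was 0.987 for Gbp2, 0.978 for Gbp3, 0.904 for Gbp5, 0.924 for Gbp7, 0.949 for Gbp9, 0.633 for Irgm1, 0.952 for Irgm2, 0.69 for Igtp and 0.831 for Iigp1. Among 3143 other genes that averaged 100 counts or more and ranged over 2 log2 units or more, the 8 most like this profile were Ms4a4c, Usp18, Tnfsf10 and BC147527 (r = 0.998 each) and Trim30c, Oasl1, Setdb2 and Trim21 (r = 0.997 each), while the median r was -0.811. Spearman's rho was 0.943 or 1 for these 8. Over the 4 libraries without LPS, their r was 0.991 for Ms4a4c, 0.998 for Usp18, 0.986 for Tnfsf10, 0.976 for BC147527, 0.978 for Trim30c, 0.982 for Oasl1, 0.987 for Setdb2 and 0.971 for Trim21. Ms4a4c, for example, measured -1.83 in cKO against WT untreated, -0.22 with LPS and 1.12 with IL-4, and Oasl1 -1.77, -0.03 and 1.67. The points share their libraries, and the r values are a description of likeness only.

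Promoters are shown because all 9 genes were called in 1 direction in 6 of the 11 comparisons, several of which share a library. RefSeq promoters (GRCm38.p6; 250 bases before to 50 after the start of transcription) were matched for 7 of the 9 genes, with 2 for Gbp3, and none was listed for Gbp9 and Iigp1. Both strands were searched for the core of the interferon-stimulated response element (ISRE), GAAANNGAAA, and of the gamma-activated site (GAS), TTCNNNGAA. All 7 genes held the ISRE core in at least 1 promoter. By promoter it was in 7 of their 8, where 1131 of all 32851 promoters held it (3.44%). The GAS core was in 4 of the 8, those of Gbp5, Gbp7, Irgm2 and Igtp, where 2726 of all promoters held it (8.3%). Both cores were in 149 of all promoters (0.454%). The promoters of Irgm2 and Igtp share long stretches of sequence, so their matches are not independent. Of 9 other GBP and IRG genes with a promoter, 5 held the ISRE core and 3 the GAS core, and of 12 other interferon-stimulated genes 5 and 1. A match describes letters in the window and does not show binding.

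The promoters of 2 GBP and 2 IRG genes are given to show the spacing of the cores, which are in capitals, overlapping where a pair runs together, and each runs 5′ to 3′ along the gene. Gbp2 (chr3:142620413-142620712, + strand) holds 1 ISRE core that starts 59 bases before the start of transcription. Gbp7 (chr3:142530086-142530385, + strand) holds GAS cores 106 and 87 bases before it and an ISRE core 53 bases before it. Irgm1 (chr11:48871371-48871670, - strand) holds 2 overlapping ISRE cores, 30 and 24 bases before it. Igtp (chr11:58199306-58199605, + strand) holds a GAS core 45 and an ISRE core 34 bases before it, and Irgm2 has the same pair 75 and 64 bases before its start.
Gbp2: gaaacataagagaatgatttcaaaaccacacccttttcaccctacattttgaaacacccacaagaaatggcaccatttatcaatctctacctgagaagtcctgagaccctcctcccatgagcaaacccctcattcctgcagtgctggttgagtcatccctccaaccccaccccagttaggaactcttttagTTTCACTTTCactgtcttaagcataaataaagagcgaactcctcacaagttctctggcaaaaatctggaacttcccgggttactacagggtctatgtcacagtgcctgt
Gbp7: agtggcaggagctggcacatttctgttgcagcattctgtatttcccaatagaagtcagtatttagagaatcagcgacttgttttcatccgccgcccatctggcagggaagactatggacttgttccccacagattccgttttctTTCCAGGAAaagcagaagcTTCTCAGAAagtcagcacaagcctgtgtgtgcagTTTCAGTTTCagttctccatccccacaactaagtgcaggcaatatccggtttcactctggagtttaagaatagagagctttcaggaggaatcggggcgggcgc
Irgm1: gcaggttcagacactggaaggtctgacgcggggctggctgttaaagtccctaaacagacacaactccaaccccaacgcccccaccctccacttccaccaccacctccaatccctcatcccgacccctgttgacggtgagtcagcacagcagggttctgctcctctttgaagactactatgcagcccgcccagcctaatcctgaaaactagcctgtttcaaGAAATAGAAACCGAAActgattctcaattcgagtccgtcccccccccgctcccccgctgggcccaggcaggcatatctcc
Igtp: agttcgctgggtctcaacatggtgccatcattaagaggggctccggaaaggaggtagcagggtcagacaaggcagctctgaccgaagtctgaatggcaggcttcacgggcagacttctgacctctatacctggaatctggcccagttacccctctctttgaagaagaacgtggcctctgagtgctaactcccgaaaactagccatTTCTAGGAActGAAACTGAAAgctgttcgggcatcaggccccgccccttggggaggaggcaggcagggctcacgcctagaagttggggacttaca

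**Figure D3:**
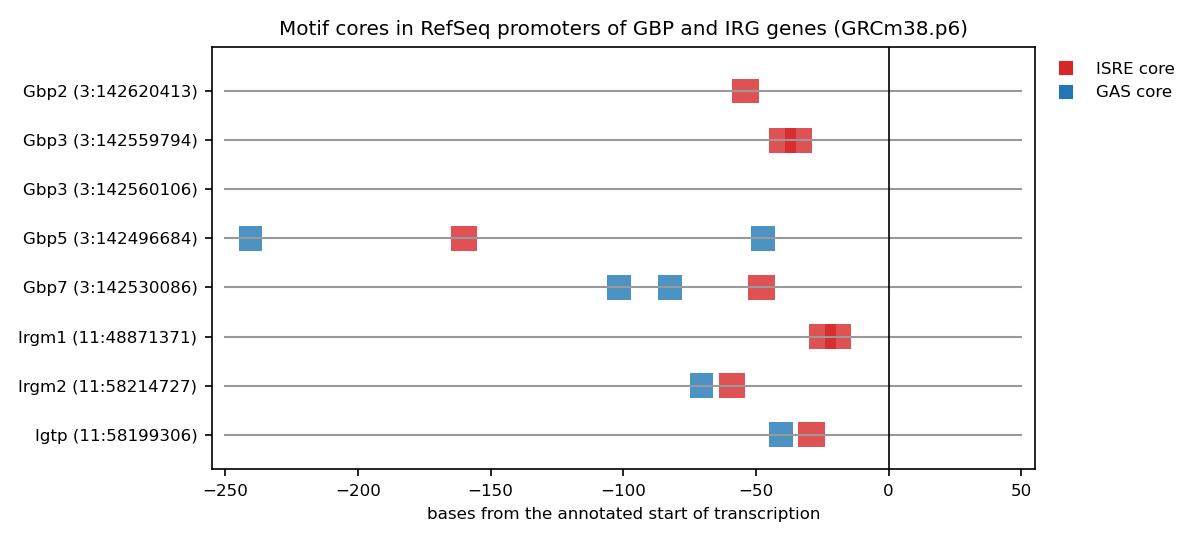
Positions of the ISRE core (red) and the GAS core (blue) in the 8 RefSeq promoters of 7 genes, in bases from the annotated start of transcription, each row labelled with chromosome and first base. Of the 8 promoters 7 hold an ISRE core, and the later Gbp3 promoter holds neither core.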

How the data were processed

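RNA-seq of 12 libraries was used of the 47 samples of the series, and the 35 other samples were not analysed. Each BMDM table as deposited gives estimated counts per gene, not scaled by the authors for depth or length, and TPM that the authors computed per gene length and library. The tables of Raw264.7 libraries hold a signal per gene that the authors made by dividing counts by a factor per library. Dividing by the step of each column gave whole reads within 0.1 read for 100% of values, or 99.996% in Zmynd8 KO. Of the BMDM estimated counts above 0, 75.2% to 76.6% were whole with no tolerance. The processing notes of the submitters list CASAVA 1.4 and Bowtie 0.12.2, the methods of the study name TopHat for alignment and Cuffdiff for differential expression, and the counting program is not stated. Lines without a gene were dropped (431, 431 and 2 in the NT, LPS and IL-4 tables), 2 unlabelled columns of values were left out, and the fold change and p columns of the authors, which hold their own comparisons, were not used.

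CPM was computed here as estimated counts, or recovered reads, over the library total. In BMDMs log2 fold changes used CPM plus 1, genes averaging 10 counts or more were tested, and rounded counts entered a two-sided exact binomial test with p as 2 times the smaller tail. A minimum-likelihood form of p was run first and replaced after its counts of all genes called were seen; it is kept as an alternative. In Raw264.7 tables, genes with a mean signal of 1 or more were compared within a table by fold alone; the same test on recovered reads called 4187 genes higher and 3654 lower in D/E-A, 3832 genes higher and 2851 lower in Zmynd8 KO, 2554 genes higher and 2665 lower in K122R and 1283 genes higher and 1337 lower in p65 KO. The 9 genes were named in every comparison, with at most the 2 highest and 2 lowest called genes of each list, every gene of lists of 3 or fewer, and the 8 genes most like the 9. Markers, treatment checks and targeted genes were named to check labels. The members and lists were chosen with earlier results of these data known. Gbp2b, Xist, Ddx3y and the other Y-linked genes, and Rn18s-rs5 were singled out after their values were seen. So were the neighbouring genes and the called genes with limits that reach 0. Alternatives changed scaling, pseudocount, filter, fold, test and unit. Python 3.11.15, numpy 2.4.6, pandas 2.3.3, scipy 1.17.1, matplotlib 3.10.9, R 4.3.3 and edgeR 4.0.16 were used.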

Additional observations from a re-analysis of the deposited data

Results flagged for a closer look

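The difference between cKO and WT had opposite directions in untreated and IL-4-treated BMDMs for all 9 genes, called lower in cKO when untreated and higher in cKO with IL-4. The same pair of calls was made for 3.68% of the 12118 genes tested in both. The exact test of edgeR made it for 2 of the 9, Gbp5 and Gbp7, and for 0.116% of all genes. The numbers in the titles of the IL-4 libraries lie in another range than those of the untreated ones. The log2 fold change with IL-4 minus that without treatment came to 3.19 for Gbp2, 3.27 for Gbp3, 3.83 for Gbp5, 3.56 for Gbp7, 2.46 for Gbp9, 2.01 for Irgm1, 2.58 for Irgm2, 2.28 for Igtp and 2.42 for Iigp1. With 1 library per group the difference was not tested.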

How the results depend on the processing

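A call reads counting error only, and with 1 library per group no setting measures spread between animals or lines. Of the log2 fold changes of single members under the settings that change them (other scalings, a pseudocount of 0.1 and TPM), 357 kept direction and side of the threshold, 7 lost the call, 4 gained one, 8 changed sign without a call and 2 reversed. The reversals were Igtp in D/E-A (-0.26) and Gbp9 in Zmynd8 KO (-0.02), both by scaling to macrophage markers, an alternative chosen after seeing the data. With a pseudocount of 0.1, the median of the 9 was -1.99 (from -1.76) in untreated cKO against WT. With TPM and fold alone, of the 9 genes, those called higher numbered 2 (from 1) in cKO against WT with LPS. Among other GBP and IRG genes those called lower numbered 2 (from 4) in cKO against WT with LPS. Among other interferon-stimulated genes those called lower numbered 1 (from 2) in cKO against WT with LPS. The median of the 9 was -1.98 (from -1.76) in untreated cKO against WT and 0.06 (from -0.04) in cKO against WT with LPS. With median ratio scaling, of the 9 genes, those called lower numbered 1 (from 0) in cKO against WT with LPS. The median of the 9 was -0.09 (from -0.04) in cKO against WT with LPS, 4.02 (from 3.41) in LPS against NT in WT, 6.30 (from 5.77) in LPS against NT in cKO and -0.70 (from -0.54) in IL-4 against NT in WT. With TMM scaling, among other interferon-stimulated genes those called higher numbered 2 (from 1) in p65 KO. The median of the 9 was -0.08 (from -0.04) in cKO against WT with LPS, 4.09 (from 3.41) in LPS against NT in WT, 6.34 (from 5.77) in LPS against NT in cKO and -0.69 (from -0.54) in IL-4 against NT in WT. With a fold of 2, of the 9 genes, those called higher numbered 0 (from 1) in cKO against WT with LPS, 5 (from 9) in cKO against WT with IL-4, 0 (from 1) in IL-4 against NT in WT, 4 (from 9) in D/E-A, 0 (from 8) in Zmynd8 KO and 0 (from 4) in K122R, while those called lower numbered 3 (from 6) in IL-4 against NT in WT and 1 (from 2) in p65 KO. Among other GBP and IRG genes those called higher numbered 3 (from 8) in cKO against WT with IL-4, 4 (from 13) in D/E-A, 1 (from 12) in Zmynd8 KO and 5 (from 9) in K122R, while those called lower numbered 0 (from 4) in cKO against WT with LPS, 1 (from 7) in IL-4 against NT in WT and 2 (from 12) in p65 KO. Among other interferon-stimulated genes those called higher numbered 4 (from 7) in D/E-A, 2 (from 6) in Zmynd8 KO and 1 (from 10) in K122R, while those called lower numbered 0 (from 2) in cKO against WT with LPS. With the exact test of edgeR, of the 9 genes, those called higher numbered 0 (from 1) in cKO against WT with LPS, 2 (from 9) in cKO against WT with IL-4, 0 (from 1) in IL-4 against NT in WT, 1 (from 9) in D/E-A, 0 (from 8) in Zmynd8 KO and 0 (from 4) in K122R, while those called lower numbered 3 (from 6) in IL-4 against NT in WT and 0 (from 2) in p65 KO. Among other GBP and IRG genes those called higher numbered 0 (from 8) in cKO against WT with IL-4, 2 (from 13) in D/E-A, 0 (from 12) in Zmynd8 KO and 0 (from 9) in K122R, while those called lower numbered 0 (from 4) in cKO against WT with LPS, 2 (from 7) in IL-4 against NT in WT and 1 (from 12) in p65 KO. Among other interferon-stimulated genes those called higher numbered 6 (from 11) in cKO against WT with IL-4, 3 (from 7) in D/E-A, 0 (from 6) in Zmynd8 KO, 0 (from 10) in K122R and 0 (from 1) in p65 KO, while those called lower numbered 0 (from 2) in cKO against WT with LPS. With scaling to macrophage markers, of the 9 genes, those called higher numbered 4 (from 8) in Zmynd8 KO. Among other GBP and IRG genes those called higher numbered 7 (from 13) in D/E-A and 7 (from 12) in Zmynd8 KO. Among other interferon-stimulated genes those called higher numbered 4 (from 7) in D/E-A and 3 (from 6) in Zmynd8 KO. The median of the 9 was 0.36 (from 0.93) in D/E-A and 0.06 (from 0.49) in Zmynd8 KO. With library totals, of the 9 genes, those called higher numbered 2 (from 4) in K122R. Among other interferon-stimulated genes those called higher numbered 6 (from 10) in K122R. The median of the 9 was 0.42 (from 0.49) in Zmynd8 KO and 0.03 (from 0.18) in K122R. With the exact test on recovered reads, among other interferon-stimulated genes those called higher numbered 0 (from 1) in p65 KO. Of the 8 genes most like the 9, 2 stayed by Spearman's rho, where 31 genes tie at 1, and 4 by TPM. Percents of tested genes called either way follow for the main rule, a fold of 2 and edgeR. They came to 47.6, 3.83 and 2.19 in untreated cKO against WT, 25.9, 0.904 and 0.299 in cKO against WT with LPS, 24.2, 1.97 and 1.21 in cKO against WT with IL-4, 81.7, 43.3 and 52.5 in LPS against NT in WT, 82.7, 46 and 54.6 in LPS against NT in cKO, 60.3, 16.2 and 18 in IL-4 against NT in WT, 67, 21.1 and 23.4 in IL-4 against NT in cKO, 72.6, 18.4 and 7 in D/E-A, 70.3, 25.6 and 0.84 in Zmynd8 KO, 63.3, 20 and 1.43 in K122R, 51.9, 15.8 and 0.116 in p65 KO. By macrophage markers, other interferon-stimulated genes called lower numbered 7 (from 3) in D/E-A and 7 (from 0) in Zmynd8 KO. Other GBP and IRG genes called lower numbered 2 (from 0) and 4 (from 1), and all genes 8417 of 12771 and 12715 of 21302. Further counts of these lists that moved were of 4 or fewer by the main rule and went to 2 or fewer. By TPM the median of all genes was -0.27 with LPS and 0.34 with IL-4 against NT in cKO. A fold of 2 and edgeR each called 7 of the 9 higher (from 9) with IL-4 against NT in cKO, and edgeR called 8 lower (from 9) in untreated cKO against WT. The minimum-likelihood p gave the same counts of the 9. The cause of these was not tested.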
